A study of Mus musculus with 16 samples.

Results

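The 45 genes described here build and shape the actin cytoskeleton of macrophages, from actin itself to the proteins that branch, extend, cut, bundle and anchor its filaments at the plasma membrane. They were chosen by symbol for their role, with earlier results of these data known, and all 45 were among its 55573 gene records. Of these, 43 passed the low-count filter, which 13107 genes of the whole table passed. They fall into 12 groups by role.

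The data are 16 RNA-seq libraries from the mouse macrophage-like line RAW264.7 (TIB-71), with 4 libraries in each of 4 groups. By the genotype label these are knockdowns (KD) of ORP5/8, of ATP11A/C and of CDC50A, and the Parental line. ORP5 and ORP8 (genes Osbpl5 and Osbpl8) are lipid transfer proteins, ATP11A is a phosphatidylserine flippase, and CDC50A (gene Tmem30a) is a subunit that such flippases need. All groups were collected the day after plating in complete medium, and the labels name no particle given to the cells. The KD library names begin with "sh" and the Parental ones with "Ctrl". The labels name no construct for Parental, and they do not say whether a KD line was 1 clone. A change shared by the KD lines therefore cannot be told apart from an effect of carrying a construct. The labels also do not say that the 4 libraries of a group came from separate cultures, and the spread on which the p-values rest may then be technical.

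When a macrophage engulfs a particle, receptors at the contact site recruit small GTPases, which switch on nucleation promoters of the WASP and WAVE families. These activate the Arp2/3 complex, which grows branched actin filaments that push the membrane out as a phagocytic cup. Formins and Ena/VASP proteins lengthen filaments, cofilin, gelsolin and coronins take them apart, and ERM proteins, class I myosins, MARCKS proteins and spectrin tie the network to the membrane.

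Total counts ran from 24020891 to 41543050 per library. Mitochondrial genes held 1.515 to 1.773% of the counts in ORP5/8 KD, 1.365 to 1.78% in ATP11A/C KD and 1.422 to 1.761% in CDC50A KD, against 1.084 to 1.256% in Parental. All 8 macrophage markers were detected in every library. Their summed level was 7157.7 to 7562.1 CPM (counts-per-million) in ORP5/8 KD, 5788.7 to 6199.2 in ATP11A/C KD and 6666.4 to 6948.5 in CDC50A KD, against 10742.2 to 11434.3 in Parental. This sum leans on Lyz2, which ran from 2471.5 to 7449.8 CPM over all libraries. Csf1r, the next highest, ran from 1493.5 to 2188.1 CPM, so the sum does not show how each marker changed. Of the 15 fibroblast, epithelial and lymphocyte markers, 13 were at 0 in every library, and Col1a1 and Cd79a reached at most 0.0247 and 0.124 CPM. The part of the mitochondrial share and of the macrophage markers in the results that follow was not tested. Of the target genes, Osbpl8 stood at 99.1 CPM in ORP5/8 KD, 126.8 in ATP11A/C KD, then 116.2 in CDC50A KD, against 337.2 in Parental, so it was low in all KD groups. Atp11a stood at 21.4 CPM in ATP11A/C KD, against 61.4 in Parental. Tmem30a stood at 127 CPM in CDC50A KD, against 161.5 in Parental, and Osbpl5 was too low to test, at 0.176 CPM in ORP5/8 KD and 0.14 CPM in Parental. The groups are named by their labels throughout.

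To set the genes beside one another, levels were divided by the kilobases of annotated exon, which understates a gene whose annotation holds many unused exons. On this scale the cells' actin machinery was led by Actb and Actg1, the cytoplasmic beta and gamma actins, at 1883.2 and 701.3 CPM per kb in Parental. Cfl1 (cofilin, which severs filaments), Pfn1 (profilin, which delivers actin monomers), Capg (a cap for filament ends) and Arpc2 (an Arp2/3 subunit) followed at 619.5, 379.3, 357 and 286.3 CPM per kb. Of the 43 tested genes, 40 lay above the median of all tested genes and 27 above 90% of them. The lowest tested members were Evl, Wasl and Sptbn1, at 4.91, 3.41 and 2.11 CPM per kb. Enah, an Ena/VASP protein, and Marcks, an actin- and membrane-binding protein, did not pass the filter. Enah held 15 counts in all in ORP5/8 KD, 16 in ATP11A/C KD, then 32 in CDC50A KD, against 11 in Parental. Marcks held 7, 3 and 4 counts in the same KD groups, against 8 in Parental. The relatives that passed the filter were Vasp and Evl for Enah, and Marcksl1 for Marcks.

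**Figure D1:**
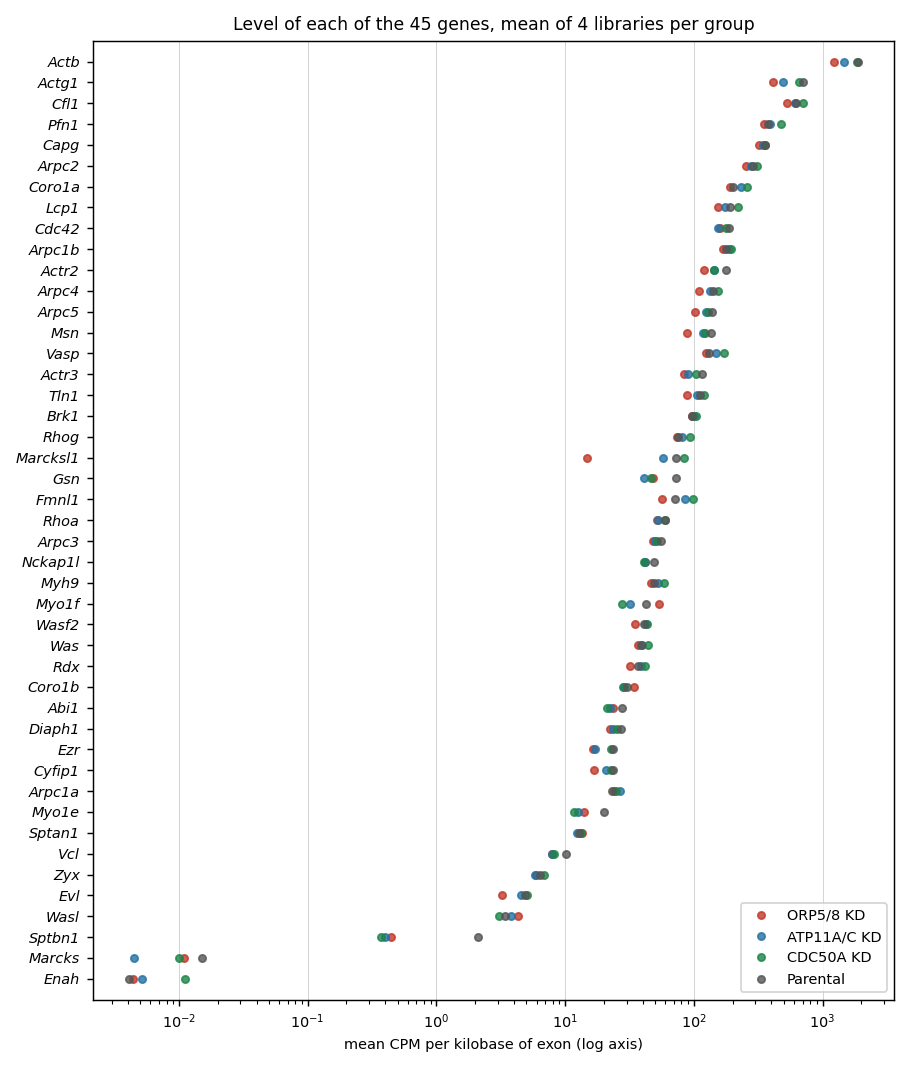
Mean level of each of the 45 genes in each group (n = 4 libraries), in CPM per kilobase of exon on a log axis, ordered by the Parental level. Actb is highest at 1883.2 CPM per kb in Parental, Enah and Marcks lie far below the other genes, and Marcksl1 and Sptbn1 show the widest gaps between groups.

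Promoter windows from RefSeq (GRCm38.p6, from 250 bases before to 50 after the start site) were found for 39 of the 45 genes; Actb, Cyfip1, Nckap1l, Coro1b, Diaph1 and Marcks had none. The windows were searched on both strands for the CArG box, which reads the same pattern on either strand and is the element recognised by serum response factor, a factor long known to act on actin genes. It was found in 4 of the 39 genes (10.3%), against 1.44% of the 9279 tested genes with a window and 1.81% of the 27025 genes with one. A match is a description of the letters and not of a working site. The bases before the start site are shown for these 4 promoters, which are all those found with the box. The CArG box is in capitals, and the bases are read along the gene's own strand. They lie at chr11:120348496-120348745 (minus strand) for Actg1, chr14:20929148-20929397 (plus strand) for Vcl, chr9:70207100-70207349 (plus strand) for Myo1e and chr6:113377863-113378112 (plus strand) for Arpc4. The box begins at base -90 in Actg1, -227 in Vcl, -32 in Myo1e and -250 in Arpc4.
Actg1: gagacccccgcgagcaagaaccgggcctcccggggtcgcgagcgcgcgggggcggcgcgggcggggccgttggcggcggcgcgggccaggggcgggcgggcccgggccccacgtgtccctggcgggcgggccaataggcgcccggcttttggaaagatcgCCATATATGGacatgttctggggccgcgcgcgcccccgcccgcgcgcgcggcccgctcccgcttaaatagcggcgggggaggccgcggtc
Vcl: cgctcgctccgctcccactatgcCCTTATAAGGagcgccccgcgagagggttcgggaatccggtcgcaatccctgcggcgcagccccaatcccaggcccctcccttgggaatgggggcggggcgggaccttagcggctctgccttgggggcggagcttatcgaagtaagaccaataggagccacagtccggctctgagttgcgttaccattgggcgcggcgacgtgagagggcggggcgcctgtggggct
Myo1e: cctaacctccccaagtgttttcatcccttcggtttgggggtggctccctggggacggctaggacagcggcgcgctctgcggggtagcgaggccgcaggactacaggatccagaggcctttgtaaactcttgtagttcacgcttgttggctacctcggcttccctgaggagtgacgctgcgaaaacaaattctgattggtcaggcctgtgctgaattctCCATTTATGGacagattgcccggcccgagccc
Arpc4: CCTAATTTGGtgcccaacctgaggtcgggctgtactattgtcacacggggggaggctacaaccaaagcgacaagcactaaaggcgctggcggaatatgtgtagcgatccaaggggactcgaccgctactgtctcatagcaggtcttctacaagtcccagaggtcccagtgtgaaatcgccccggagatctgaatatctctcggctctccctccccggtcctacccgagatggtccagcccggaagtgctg
The 4 genes did not share a pattern across the groups. Vcl and Myo1e were called lower than Parental in each KD group, Actg1 in ORP5/8 KD and ATP11A/C KD, and Arpc4 in ORP5/8 KD, and their values are given with their roles. The core of the interferon-stimulated response element, GAAANNGAAA, searched on both strands, was in 0 of the 48 windows of these genes, some of which have more than 1 start site, against 3.37% of the 11797 windows of tested genes.

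More actin genes were lower than higher in ORP5/8 KD and ATP11A/C KD, while CDC50A KD was mixed. A gene was called at an edgeR quasi-likelihood adjusted p under 0.05 over all 13107 genes. In ORP5/8 KD, 29 of 43 were called lower and 3 higher, against 24.3% and 22% of all tested genes, and the median log2 fold change was -0.23, against 0.02 over all tested genes. With upper-quartile scaling 28 were lower and 5 higher, and the medians were -0.15 for the members and 0.09 for all tested genes. In ATP11A/C KD, 21 were called lower and 4 higher, against 20.2% and 17.4% of all tested genes, with a median of -0.13, against 0.01. In CDC50A KD, 10 were called lower and 14 higher, against 26.1% and 24.3% of all tested genes, with a median of 0.00, against -0.01. The CDC50A KD counts were close to the background. The same shares of all tested genes are the background of the counts by role that follow, and with at most 8 tested genes in a role, 1 gene is at least 12.5% of it. This background, here and below, was not matched for level. Of the 43 members, 27 lay above 90% of tested genes per kb of exon, and smaller shifts can be called at higher counts. The part of level in the shares called was not tested. These 3 comparisons share the Parental libraries, so they are set side by side and no overlap between them is read. Most changes were small. In ORP5/8 KD, 7 of the 43 members were called at least 1.5-fold lower, a larger share than the 7.76% of all tested genes. Of the 7, Evl, Actb, Gsn and Msn lay near this limit, at log2 fold changes of -0.59, -0.61, -0.61 and -0.62. That count was not taken with upper-quartile scaling, which moved the members' median from -0.23 to -0.15. In ATP11A/C KD 3 of 43 were called at least 1.5-fold lower, against 6.99% of all tested genes, and in CDC50A KD 4 of 43, against 9.38%. These last 2 counts were near the background. None was called at least 1.5-fold higher, against 4.82%, 2.69% and 3.48% of all tested genes. Together the 45 genes held 1.92% ± 0.0479 of all counts in ORP5/8 KD, 2.13% ± 0.107 in ATP11A/C KD, then 2.33% ± 0.0826 in CDC50A KD, against 2.35% ± 0.0512 in Parental (SD, n = 4 each). Of this, Actb and Actg1 held 0.459% ± 0.0228, 0.528% ± 0.0672 and 0.64% ± 0.0738 in the same order of KD groups, against 0.684% ± 0.0219 in Parental. The lower sums in ORP5/8 KD and ATP11A/C KD thus lean on the actin isoforms and are not spread evenly over the 45 genes. In bulk RNA, fewer cells of one kind and less RNA per cell cannot be told apart.

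**Figure D2:**
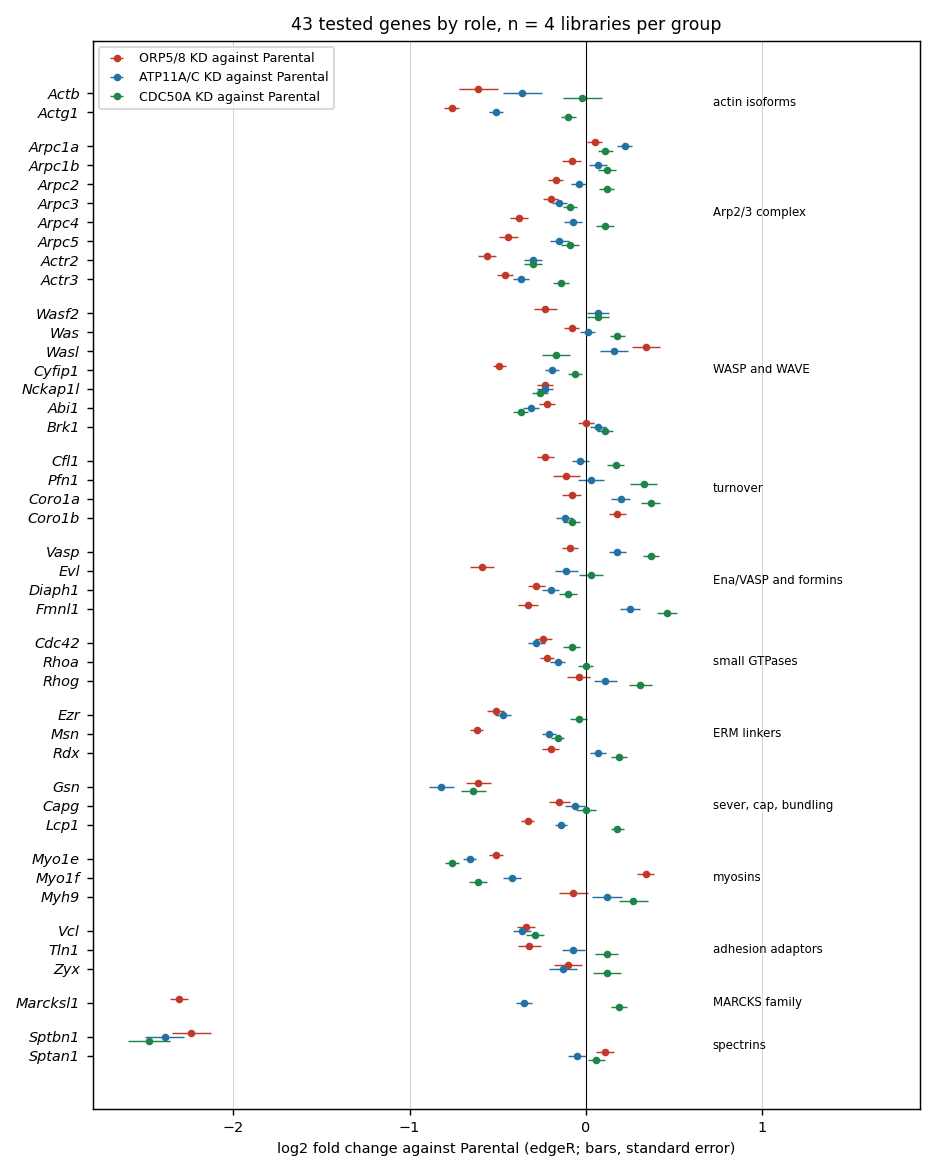
Points are log2 fold changes against Parental (edgeR) of the 43 tested genes, grouped by role, for each KD group (n = 4 libraries per group). Bars are standard errors derived from the F statistic of the test. The ORP5/8 KD points lie mostly left of 0, with a median of -0.23, while the CDC50A KD points fall on both sides; Marcksl1 stands apart in ORP5/8 KD, at -2.31, and Sptbn1 in all KD groups.

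Both actin isoforms were lower in ORP5/8 KD and in ATP11A/C KD, and neither was called in CDC50A KD. Actb (chromosome 5, 142903115 to 142906754, minus strand, GRCm38) had 3326.5, 3461.9, 3432.8 and 3008.3 CPM in ORP5/8 KD 1 to 4, 4616.1, 2910.9, 3995.6 and 4159.7 in ATP11A/C KD, and 5334.9, 5614.8, 4992.4 and 3895.0 in CDC50A KD, against 5165.2, 5285.9, 4926.3 and 4803.3 in Parental. ATP11A/C KD 2 and CDC50A KD 4 stood below the other libraries of their groups, and the ORP5/8 KD and ATP11A/C KD libraries all lay under the Parental range. Actb had log2 fold changes of -0.61 ± 0.11 in ORP5/8 KD (SE; adjusted p = 7.6e-05), -0.36 ± 0.11 in ATP11A/C KD (0.01), then -0.02 ± 0.11 in CDC50A KD (0.864). Actg1 (chromosome 11, 120345690 to 120348542, minus strand) was tighter within its groups. It had 1097.4, 1111.3, 1134.4 and 1052.1 CPM in ORP5/8 KD, 1309.4, 1308.0, 1250.6 and 1360.1 in ATP11A/C KD, and 1793.4, 1750.4, 1799.2 and 1616.7 in CDC50A KD, against 1866.3, 1949.0, 1836.3 and 1804.4 in Parental. The 4 groups did not overlap, and CDC50A KD lay just under Parental. Actg1 had log2 fold changes of -0.76 ± 0.042 (adjusted p = 2.39e-12), -0.51 ± 0.042 (3.02e-09) and -0.10 ± 0.042 (0.0547) in the same order of KD groups. The last was called by DESeq2 (adjusted p = 0.0332), with the 1 CPM filter (0.0222), in the fit of these 2 groups alone (0.0419), and without Parental 4 (0.0498), CDC50A KD 1 (0.0337) or CDC50A KD 3 (0.0366). The coding sequences of Actb and Actg1 are 88.7% identical over 1128 bases in GENCODE M21, with 62 bases as the longest identical run and 0 of 1029 windows of 100 bases, the read length, identical.

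The Arp2/3 complex, which starts new filament branches, was lower in ORP5/8 KD for 6 of its 8 tested subunit genes, against 4 lower and 1 higher in ATP11A/C KD and 2 lower and 2 higher in CDC50A KD. The last counts, 25% each way, were near the 26.1% and 24.3% of all tested genes, while the 75% lower in ORP5/8 KD stood against 24.3%. Its largest change was in Actr2, the Arp2 subunit (chromosome 11, 20062304 to 20112913, minus strand). Actr2 had 682.2, 642.7, 573.6 and 605.5 CPM in ORP5/8 KD, 692.2, 747.9, 754.9 and 791.8 in ATP11A/C KD, and 758.6, 787.2, 731.8 and 716.8 in CDC50A KD, against 891.4, 924.8, 973.7 and 893.7 in Parental. Every KD library lay below every Parental library. In log2 fold change this was -0.56 ± 0.053 (adjusted p = 1.73e-08), -0.30 ± 0.053 (0.000103) and again -0.30 ± 0.053 (8.14e-05) in the same order of KD groups. Its partner Actr3, the Arp3 subunit, fell in the same groups by 0.46, 0.37 and 0.14 on the log2 scale (adjusted p = 2.78e-08, 1.22e-06 and 0.0114), and the last call ended without Parental 2 (adjusted p = 0.0529). Arpc5 and Arpc4 had log2 fold changes of -0.44 and -0.38 in ORP5/8 KD (adjusted p = 8.08e-07 and 2.99e-06). The subunits did not move as one. Arpc1a, one of 2 alternative subunits, rose by 0.22 in ATP11A/C KD (adjusted p = 0.000219). It had 0.05 in ORP5/8 KD (0.348), called with upper-quartile scaling (0.12, 0.0226). Its alternative Arpc1b was not called in any KD group, although in CDC50A KD it was in the fit of these 2 groups alone (0.12, 0.0243) and without Parental 2 (0.16, 0.0308). Also uncalled in CDC50A KD, Arpc3 (-0.09, 0.0718) was called by DESeq2 (0.0496), with the 1 CPM filter (0.03) and without Parental 4 or CDC50A KD 4. Arpc4 (0.11, 0.0715) was called there without Parental 2 (0.0238) or CDC50A KD 4 (0.0372), and Arpc5 (-0.09, 0.177) in the fit of these 2 groups alone (0.049). In ATP11A/C KD, the call of Arpc3 (-0.15, adjusted p = 0.00743) ended without Parental 2 or ATP11A/C KD 3, and that of Arpc5 (-0.15, 0.0291) with upper-quartile scaling (0.0736), in the fit of these 2 groups alone (0.0735) and without Parental 1, 2 or 3 or ATP11A/C KD 1 or 3. In CDC50A KD, the call of Arpc2 (0.12, adjusted p = 0.0242) ended without Parental 3 or 4 or CDC50A KD 2 or 3, and that of Arpc1a (0.11, 0.0313) with no filter (0.0562), with the 1 CPM filter (0.062) and without Parental 1 or 4 or any 1 CDC50A KD library. Arpc2 was lower in ORP5/8 KD at -0.17 (adjusted p = 0.00161), and Arpc3 at -0.20 (0.000455).

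Of the 7 WASP and WAVE genes, which activate the Arp2/3 complex, 4 were lower and 1 higher in ORP5/8 KD, 3 were lower in ATP11A/C KD, then 2 were lower and 2 higher in CDC50A KD. The CDC50A KD counts, 28.6% each way, were again near the shares of all tested genes, and the 57.1% lower in ORP5/8 KD stood against 24.3%. Cyfip1, the subunit of the WAVE complex that binds Rac (chromosome 7, 55841745 to 55932602, plus strand), had 205.4, 205.9, 198.5 and 191.1 CPM in ORP5/8 KD, 248.8, 237.8, 245.3 and 256.2 in ATP11A/C KD, and 271.4, 275.5, 276.8 and 257.7 in CDC50A KD, against 276.4, 292.0, 280.0 and 278.9 in Parental. The ORP5/8 KD libraries were lowest with no overlap, ATP11A/C KD came next, and CDC50A KD overlapped Parental. Cyfip1 had log2 fold changes of -0.49 ± 0.039 (adjusted p = 1.07e-09), -0.19 ± 0.039 (0.000579) and -0.06 ± 0.039 (0.209), with ORP5/8 KD given first and CDC50A KD last. Nckap1l (HEM1, the WAVE complex subunit of blood cells) and Abi1 (its adaptor) were lower in every KD group. Nckap1l stood at -0.23, -0.23 and -0.26 (adjusted p = 0.000267, 0.00028 and 5.48e-05) and Abi1 at -0.22, -0.31 and -0.37 (0.00022, 6.88e-06 and 5.56e-07). Wasf2 (WAVE2) was lower in ORP5/8 KD at -0.23 (adjusted p = 0.00488) and had 0.07 in both other KD groups. Of the WASP branch, Wasl (N-WASP) was higher in ORP5/8 KD at 0.34 (adjusted p = 0.00143), and Was, the WASP of blood cells, was higher in CDC50A KD at 0.18 (0.00158). Brk1, the smallest WAVE complex subunit, was called higher in CDC50A KD at 0.11 (adjusted p = 0.039), a call that ended with the 1 CPM filter (0.0756) and without Parental 1 or 4 or CDC50A KD 2, 3 or 4.

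Of the 4 genes of monomer and filament turnover, 3 were higher and none lower in CDC50A KD, against 1 higher and 1 lower in ORP5/8 KD and 1 higher in ATP11A/C KD. Coro1a, the coronin of blood cells (chromosome 7, 126699773 to 126707787, minus strand), had 505.3, 533.2, 569.6 and 507.6 CPM in ORP5/8 KD, 677.7, 613.4, 665.2 and 622.9 in ATP11A/C KD, and 716.4, 657.5, 739.8 and 773.7 in CDC50A KD, against 518.9, 579.3, 564.3 and 576.2 in Parental. ORP5/8 KD overlapped Parental, and the libraries of the other 2 KD groups all lay above it. Coro1a had log2 fold changes of -0.08 ± 0.054 (adjusted p = 0.227), 0.20 ± 0.054 (0.00473) and 0.37 ± 0.054 (9.29e-06) for ORP5/8, ATP11A/C and CDC50A KD. Cfl1 was lower in ORP5/8 KD at -0.23 (adjusted p = 0.000378), had -0.03 in ATP11A/C KD (0.717) and was higher in CDC50A KD at 0.17 (0.00397). Pfn1 was higher in CDC50A KD at 0.33 (adjusted p = 0.00125), with libraries from 1005.9 to 1223 CPM, against 816.1 to 1013.2 in Parental, ranges that overlap. Coro1b, a more widely expressed coronin, was higher in ORP5/8 KD at 0.18 (adjusted p = 0.00425) and had -0.12 and -0.08 in ATP11A/C KD and CDC50A KD (0.0576 and 0.183). In ATP11A/C KD it was called lower with the 1 CPM filter (-0.13, adjusted p = 0.0441) and without ATP11A/C KD 1 (-0.152, 0.0261).

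Of the 4 tested Ena/VASP and formin genes, 3 were lower in ORP5/8 KD, 2 higher and 1 lower in ATP11A/C KD, then 2 higher in CDC50A KD. Evl, an Ena/VASP protein (chromosome 12, 108554720 to 108688516, plus strand), had 8.89, 9.64, 10.3 and 9.51 CPM in ORP5/8 KD, 12.5, 13.8, 14.0 and 13.1 in ATP11A/C KD, and 13.6, 14.6, 15.5 and 15.3 in CDC50A KD, against 14.1, 15.2, 14.2 and 14.3 in Parental. ORP5/8 KD was the low group, with no library in the range of any other. Evl had log2 fold changes of -0.59 ± 0.069 (adjusted p = 3.48e-07), -0.11 ± 0.067 (0.206) and 0.03 ± 0.068 (0.742). Fmnl1, a formin of blood cells, was lower in ORP5/8 KD at -0.33 ± 0.057 (adjusted p = 7.09e-05) and higher in ATP11A/C KD at 0.25 ± 0.057 (0.00161) and CDC50A KD at 0.46 ± 0.057 (1.23e-06). Vasp was higher in ATP11A/C KD at 0.18 and CDC50A KD at 0.37 (adjusted p = 0.00461 and 1.46e-06) and had -0.09 in ORP5/8 KD (0.11). Diaph1, a formin, was lower in ORP5/8 KD at -0.28 and ATP11A/C KD at -0.20 (adjusted p = 0.000107 and 0.00359). In CDC50A KD it had -0.1 and was not called. It was called lower there with the 1 CPM filter (-0.121, adjusted p = 0.0463), in the fit of these 2 groups alone (-0.105, 0.0275) and without CDC50A KD 2 (-0.139, 0.041).

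Of the 3 small GTPases, 2 were lower in both ORP5/8 KD and ATP11A/C KD, and 1 was higher in CDC50A KD. Cdc42, which drives membrane extension at the cup (chromosome 4, 137319696 to 137357720, minus strand), had 497.8, 478.6, 450.4 and 455.8 CPM in ORP5/8 KD, 439.1, 489.4, 423.9 and 479.1 in ATP11A/C KD, and 497.4, 553.3, 525.9 and 526.1 in CDC50A KD, against 538.2, 572.3, 560.0 and 556.7 in Parental. The first 2 of these groups lay below Parental with no overlap, and CDC50A KD overlapped it. Cdc42 had log2 fold changes of -0.24 ± 0.049 (adjusted p = 0.000329), -0.28 ± 0.049 (9.18e-05) and -0.08 ± 0.049 (0.163). Rhoa, which controls contractility, stood at -0.22 and -0.16 in ORP5/8 KD and ATP11A/C KD (adjusted p = 0.000232 and 0.00371) and at 0.00 in CDC50A KD (0.939). Rhog, which acts upstream of Rac in engulfment, was higher in CDC50A KD at 0.31 (adjusted p = 0.000524), where CDC50A KD 3 had 146.5 CPM and the other 3 libraries 125.5 to 128.8, against 102.5 to 112.6 in Parental.

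All 3 ERM genes, whose proteins link filaments to membrane proteins, were lower in ORP5/8 KD, against 2 lower in ATP11A/C KD, then 1 lower and 1 higher in CDC50A KD. Msn, moesin (X chromosome, 96096042 to 96168552, plus strand), had 559.5, 560.7, 564.8 and 551.5 CPM in ORP5/8 KD, 762.3, 700.9, 733.8 and 772.1 in ATP11A/C KD, and 774.8, 780.6, 781.3 and 744.2 in CDC50A KD, against 896.7, 860.2, 844.4 and 830.1 in Parental. ORP5/8 KD was far below the other KD groups, which themselves lay below Parental without overlap. Msn had log2 fold changes of -0.62 ± 0.039 (adjusted p = 1.94e-11), -0.21 ± 0.039 (0.000193) and -0.16 ± 0.039 (0.00207). Ezr, ezrin, was lower in ORP5/8 KD at -0.51 and ATP11A/C KD at -0.47 (adjusted p = 1.26e-08 and 7.89e-08) and had -0.04 in CDC50A KD (0.476). Rdx, radixin, was lower in ORP5/8 KD at -0.20 (adjusted p = 0.00126) and higher in CDC50A KD at 0.19 (0.00222).

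Gsn, gelsolin, which severs and caps filaments, was lower in every KD group (chromosome 2, 35256380 to 35307892, plus strand). It had 134.5, 154.7, 156.6 and 158.1 CPM in ORP5/8 KD, 143.3, 114.9, 128.0 and 135.4 in ATP11A/C KD, and 136.0, 133.7, 156.9 and 163.0 in CDC50A KD, against 222.6, 239.9, 217.6 and 241.2 in Parental. The KD libraries overlapped one another and all lay far under Parental. Gsn had log2 fold changes of -0.61 ± 0.071 (adjusted p = 3.8e-07), -0.82 ± 0.071 (7.28e-09) and -0.64 ± 0.071 (2.44e-07) for ORP5/8, ATP11A/C and CDC50A KD. Lcp1, the bundling protein L-plastin, was lower in ORP5/8 KD at -0.33 and ATP11A/C KD at -0.14 (adjusted p = 1.51e-07 and 0.00433) and higher in CDC50A KD at 0.18 (0.00027). Capg was called lower in ORP5/8 KD at -0.15 (adjusted p = 0.0426), a call that ended with upper-quartile scaling (0.291) and without any 1 Parental library or ORP5/8 KD 1, 2 or 4.

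The 2 class I myosins, motors that join the membrane to filaments and gather at phagocytic cups, parted ways in ORP5/8 KD. Myo1e (chromosome 9, 70207350 to 70399766, plus strand) had 80.9, 77.8, 81.8 and 77.9 CPM in ORP5/8 KD, 74.6, 70.7, 71.8 and 70.2 in ATP11A/C KD, and 71.1, 65.8, 66.3 and 65.2 in CDC50A KD, against 116.2, 114.8, 111.5 and 110.9 in Parental. Every KD library lay well under the Parental range. Myo1e had log2 fold changes of -0.51 ± 0.039 (adjusted p = 5.83e-10), -0.66 ± 0.039 (1.82e-11) and -0.76 ± 0.04 (2.19e-12). Myo1f (chromosome 17, 33555707 to 33607764, plus strand) had 258.4, 276.0, 271.0 and 263.4 CPM in ORP5/8 KD, 172.9, 139.0, 157.7 and 161.1 in ATP11A/C KD, and 142.7, 133.4, 142.3 and 134.3 in CDC50A KD, against 214.8, 214.2, 209.6 and 207.1 in Parental. ORP5/8 KD lay above Parental and the other KD groups below it, without overlap. Myo1f had log2 fold changes of 0.34 ± 0.05 (adjusted p = 1.1e-05), -0.42 ± 0.051 (8.53e-07) and -0.61 ± 0.051 (3.41e-09). Myh9, the heavy chain of a contractile non-muscle myosin, was called higher in CDC50A KD at 0.27 (adjusted p = 0.0113), and that call ended without CDC50A KD 1 (0.0536). It had 0.12 in ATP11A/C KD, not called, and was called there without ATP11A/C KD 2 (0.23, adjusted p = 0.00751). The difference of ORP5/8 KD from CDC50A KD was called (-0.34, adjusted p = 0.0016), and that of CDC50A KD from ATP11A/C KD was not (0.15, 0.193), though it was without ATP11A/C KD 1 (0.22, 0.0438).

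Vcl, vinculin, which couples talin to filaments (chromosome 14, 20929398 to 21033676, plus strand), had 65.0, 65.1, 67.6 and 62.4 CPM in ORP5/8 KD, 67.2, 58.4, 64.5 and 67.1 in ATP11A/C KD, and 67.0, 69.0, 69.3 and 65.3 in CDC50A KD, against 89.3, 84.3, 78.2 and 78.1 in Parental. The KD groups shared one range, and all of it lay under Parental. Vcl had log2 fold changes of -0.34 ± 0.051 (adjusted p = 1.01e-05), -0.36 ± 0.051 (8.17e-06) and -0.29 ± 0.051 (8.95e-05) for ORP5/8, ATP11A/C and CDC50A KD. Tln1, talin, which links integrins to filaments, was lower in ORP5/8 KD at -0.32 (adjusted p = 0.000317) and had -0.07 and 0.12 in ATP11A/C KD and CDC50A KD (0.424 and 0.122). Zyx, zyxin, a focal adhesion protein, was not called in any KD group, with values of -0.10, -0.13 and 0.12.

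The member with the widest change in ORP5/8 KD was Marcksl1, which binds the inner membrane leaflet and actin. Marcksl1 (chromosome 4, 129513581 to 129515985, plus strand) had 22.5, 24.1, 24.9 and 23.4 CPM in ORP5/8 KD, 100.5, 90.4, 88.7 and 90.4 in ATP11A/C KD, and 130.5, 134.6, 137.7 and 134.1 in CDC50A KD, against 119.0, 124.3, 114.1 and 113.2 in Parental. All 4 groups were apart from one another, and ORP5/8 KD held 20.2% of the mean level in Parental. Marcksl1 had log2 fold changes of -2.31 ± 0.05 (adjusted p = 3.46e-19) in ORP5/8 KD, -0.35 ± 0.046 (3.33e-06) in ATP11A/C KD, then 0.19 ± 0.046 (0.00162) in CDC50A KD.

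Sptbn1, the non-erythroid beta spectrin, which forms the submembrane lattice with the alpha chain of Sptan1, showed a different pattern. Sptbn1 (chromosome 11, 30099395 to 30268175, minus strand) had 7.91, 8.17, 7.62 and 7.46 CPM in ORP5/8 KD, 7.5, 4.78, 7.06 and 8.72 in ATP11A/C KD, and 7.44, 5.56, 6.19 and 7.01 in CDC50A KD, against 38.4, 36.1, 35.7 and 37.3 in Parental. The KD groups shared one low range and Parental stood alone. Sptbn1 had log2 fold changes of -2.24 ± 0.11 (adjusted p = 4.81e-13), -2.39 ± 0.11 (5.16e-13) and -2.48 ± 0.12 (4.38e-13). Sptan1 was not called in ORP5/8 KD, ATP11A/C KD or CDC50A KD, at 0.11, -0.05 and 0.06 (adjusted p = 0.0817, 0.499 and 0.365), so the beta chain changed without the alpha chain passing the test. In ORP5/8 KD, Sptan1 was called with upper-quartile scaling (0.18, adjusted p = 0.00311), in the fit of these 2 groups alone (0.11, 0.0283) and without ORP5/8 KD 4 (0.13, 0.0492).

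**Figure D3:**
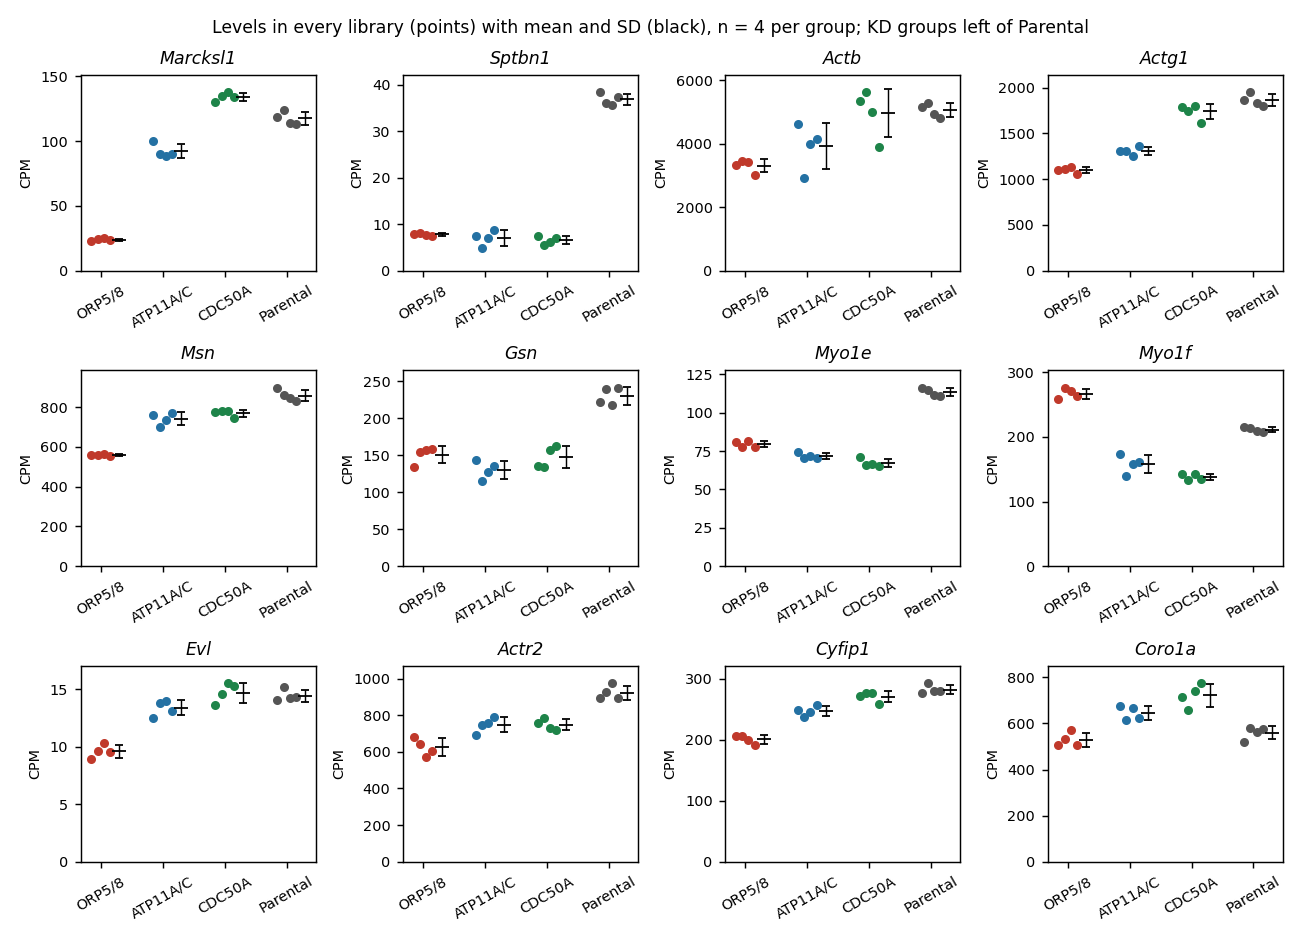
Level in every library, in CPM on linear axes from 0, of 12 members (points; black, mean and SD, n = 4 per group), with the KD groups left of Parental. Marcksl1 is lowest in ORP5/8 KD, at 22.5 to 24.9 CPM, Sptbn1 is low in every KD group, and Myo1f lies above Parental in ORP5/8 KD and below it in the other KD groups.

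The KD groups were also compared with each other, in the same fit of all 16 libraries. In CDC50A KD against ATP11A/C KD, 20 members were called higher and 2 lower, against 13.5% and 12.7% of all tested genes, with a median of 0.14, against 0.01 over all tested genes. Marcksl1 was higher in CDC50A KD by 0.54 ± 0.046 (adjusted p = 1.86e-07), Ezr by 0.43 ± 0.048 (4.57e-06), Actg1 by 0.41 ± 0.042 (1.44e-06) and Lcp1 by 0.32 ± 0.036 (4.64e-06). Actb was called higher by 0.34 ± 0.11 (adjusted p = 0.0231), and that call ended in the fit of these 2 groups alone (0.0705) and without ATP11A/C KD 2 or 3 or CDC50A KD 1, 2 or 3 (log2 0.22 to 0.35, adjusted p = 0.0521 to 0.102). The 2 members lower in CDC50A KD were Wasl at -0.32 ± 0.08 (adjusted p = 0.00567) and Myo1f at -0.19 ± 0.051 (0.00931). In a fit of these 2 groups alone, 15 were higher and 2 lower. Leaving out 1 library moved the number called between 15 (13 higher and 2 lower), without CDC50A KD 3, and 27, without ATP11A/C KD 1. The number lower was 4 with upper-quartile scaling, with the 1 CPM filter and without CDC50A KD 1.

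In ORP5/8 KD against ATP11A/C KD, 19 members were lower and 5 higher, against 20.4% and 18.2% of all tested genes, with a median of -0.14, against 0.00. In a fit of these 2 groups alone, 17 were lower and 5 higher. With upper-quartile scaling 17 were lower and 7 higher, and the medians were -0.09 for the members and 0.046 for all tested genes. Actb (-0.25, adjusted p = 0.0747) was not called, but was with no filter (-0.24, 0.0171) and without ATP11A/C KD 2 (-0.36, 0.00223). Myh9, also uncalled, was called with no filter (-0.18, 0.0341) and without ATP11A/C KD 2 (-0.29, 0.00119). Marcksl1 was lower, at a log2 difference of -1.96 ± 0.049 (adjusted p = 2.3e-17), as were Fmnl1 at -0.58 ± 0.057 (5.44e-08), Evl at -0.48 ± 0.068 (8.81e-06) and Msn at -0.41 ± 0.039 (2.65e-08). Myo1f was higher in ORP5/8 KD by 0.76 ± 0.051 (adjusted p = 1.16e-10), and Coro1b by 0.31 ± 0.049 (3.9e-05).

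The comparison with the most called members was ORP5/8 KD against CDC50A KD, where 32 were lower and 5 higher, against 29.4% and 27.5% of all tested genes, with a median of -0.29, against -0.01. With upper-quartile scaling the split was 26 lower and 8 higher. Marcksl1 differed by -2.50 ± 0.05 (adjusted p = 4.52e-19), Fmnl1 by -0.78 ± 0.057 (3.07e-10), Actg1 by -0.66 ± 0.042 (3.47e-11), Evl by -0.62 ± 0.068 (1.65e-07) and Actb by -0.58 ± 0.11 (9.53e-05). Lcp1 differed by -0.51 ± 0.036 (adjusted p = 1.83e-10), Cfl1 by -0.40 ± 0.047 (3.39e-07) and Rdx by -0.39 ± 0.047 (5.55e-07), genes that lay on opposite sides of Parental in these 2 groups. Higher in ORP5/8 KD were Myo1f at 0.95 ± 0.051 (adjusted p = 2.24e-12), Wasl at 0.50 ± 0.08 (1.91e-05), Coro1b at 0.26 ± 0.049 (0.000121), Myo1e at 0.25 ± 0.04 (2.32e-05) and Abi1 at 0.15 ± 0.044 (0.00704). Sptbn1 differed by 0.24 ± 0.12 and was not called (adjusted p = 0.102); it was called with upper-quartile scaling (0.0363) and in the fit of these 2 groups alone (0.0415).

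**Figure D4:**
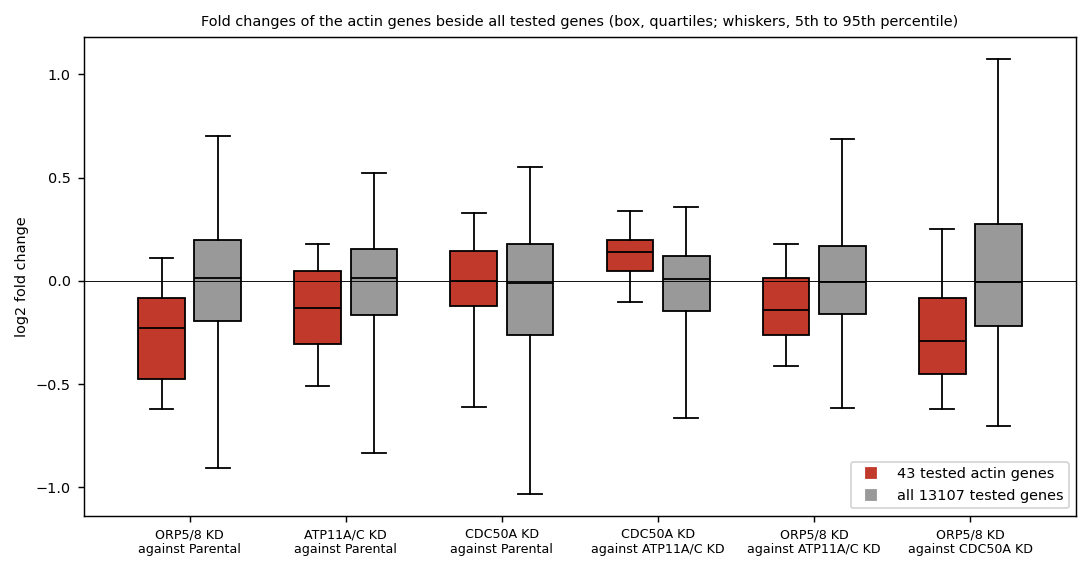
Log2 fold changes in all 6 comparisons, for the 43 tested actin genes (red) and all 13107 tested genes (grey); boxes show quartiles with the median and whiskers the 5th to 95th percentile. The actin genes' medians are -0.23, -0.13 and 0.00 for ORP5/8, ATP11A/C and CDC50A KD against Parental, and -0.29 in ORP5/8 KD against CDC50A KD.

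A wider list of actin genes outside the 45, of which 103 of 122 were tested, was also compared with Parental. In ORP5/8 KD 52 were lower and 12 higher (44 and 22 with upper-quartile scaling), or 50.5% and 11.7% of the list, against 24.3% and 22% of all tested genes. In ATP11A/C KD 40 were lower and 13 higher (38.8% and 12.6%, against 20.2% and 17.4%), while in CDC50A KD 30 were lower and 23 higher (29.1% and 22.3%), close to the 26.1% and 24.3% of all tested genes. The medians were -0.16, -0.07 and -0.03, and that of ORP5/8 KD was -0.09 with upper-quartile scaling, which put the median of all tested genes at 0.09. Its 8 sub-lists differed in ORP5/8 KD, from 17 lower and 1 higher of 23 tested capping, bundling and crosslinking genes to 1 lower and 2 higher of 8 tested formin and Spire genes, with 3 lower and 2 higher of 11 tested genes of branched nucleation. The changes of 2-fold or more with at least 10 CPM in the higher group were all decreases. Rhoc, a close relative of Rhoa, had 14.5 CPM in ORP5/8 KD, 19.1 in ATP11A/C KD, then 22 in CDC50A KD, against 50.1 in Parental, with log2 fold changes of -1.79, -1.39 and -1.19 (adjusted p = 9.56e-16, 1.78e-13 and 1.92e-12). Lpp, a zyxin relative, had 9.06, 8.88 and 8.26 CPM in the KD groups, against 25.3 in Parental (log2 fold changes -1.48, -1.51 and -1.62). Basp1, a membrane-bound cortical protein, had 20, 12.9 and 20 CPM, against 46.1 in Parental (-1.21, -1.84 and -1.21), and Tmsb10, a thymosin that binds actin monomers, had 15.1, 10.3 and 15.8, against 31 in Parental (-1.04, -1.59 and -0.98). Arpin, an inhibitor of the Arp2/3 complex, had 9.83, 11.1 and 12.4 CPM, against 21.3 in Parental (-1.11, -0.93 and -0.78). Cyfip2, the relative of Cyfip1, had 41.2 CPM in ORP5/8 KD, 14.9 in ATP11A/C KD, then 11.5 in CDC50A KD, against 34.2 in Parental. Its log2 fold changes were 0.27 (adjusted p = 0.014), -1.20 (7.2e-10) and -1.58 (1.46e-11), so it lay above Parental in the group where Cyfip1 was lowest.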

How the data were processed

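RNA was sequenced from 16 libraries, 4 in each of 4 groups taken from the labels. The label of Parental 3 gave the column number of Parental 2, so its column was matched by library name. Per the labels' protocols, 500 ng of total RNA per library was made into stranded mRNA libraries and read as 100 bp pairs. Per the submitters' processing notes, Trim Galore 0.5.0, STAR 2.7.5a, Picard, RSEM and mm10 were used. Expected counts from RSEM, 1 per gene and library, are what the authors deposited, and 4.64% carry decimals; rounding to whole counts came before any test. The 92 spike-in records sum to 0 and were left out, which leaves 55573 gene records, of which 55480 matched GENCODE M21 for coordinates and exon lengths.

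The low-count filter (filterByExpr, minimum count 10) kept 13107 genes with 99.97% of counts. With TMM scaling, 1 quasi-likelihood fit (edgeR 4.0.16, R 4.3.3) took all 16 libraries, with group as its only term (common biological coefficient of variation 6.86%). Benjamini-Hochberg adjustment ran over all tested genes within each comparison, and the code was tested on simulated data. The SE given with an edgeR log2 fold change is its absolute value divided by the square root of the test's F statistic. Levels are CPM after TMM scaling. 6 pairs of groups were compared. Not every target gene is reported here.

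Values in every library are given for 14 members: those called and changed at least 1.5-fold in a KD group, Actb and Actg1, and the member of each role with the smallest adjusted p. Other actin genes are named when called, changed at least 2-fold and at 10 CPM or more in the higher group. The members, lists and rules were chosen with earlier results of these data known. Alternatives were DESeq2 1.42.0, other scaling, filters, a replicate block, fits of 2 groups and leaving out each library.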

Additional observations from a re-analysis of the deposited data

Results flagged for a closer look

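Among 180 sets of 4 libraries (45 genes in 4 groups), 4 held a library set apart from the other 3 by a gap larger than Dixon's 95% value; chance alone sets apart about 1 in 20 sets. Rhoa stood at 462.5 CPM in Parental 2, against 439.1 to 442.8 in the other Parental libraries. Rhog stood at 146.5 CPM in CDC50A KD 3, against 125.5 to 128.8 in the other CDC50A KD libraries. Gsn stood at 134.5 CPM in ORP5/8 KD 1, against 154.7 to 158.1 in the others. Marcksl1 stood at 100.5 CPM in ATP11A/C KD 1, against 88.7 to 90.4 in the others. In each case a different library was the one set apart. The rule takes each gene on its own and does not show a shift shared by many genes. In ATP11A/C KD 2 the 45 genes held 1.98% of all counts, against 2.14 to 2.23% in the rest of its group. In CDC50A KD 4 they held 2.21%, against 2.36 to 2.39%. ATP11A/C KD 2 was the lowest of its group for Actb, Myh9 and Tln1, among others, and the highest for Arpc2, Arpc5 and Actr3, among others. Its mitochondrial share, 1.78%, was the highest of its group.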

How the results depend on the processing

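Of the 258 gene-by-comparison results of the 43 tested members, 164 were called. Of those, 25 lost the call under some alternative, 17 of them under a change of scaling, filter, test, block or fit, and 24 when 1 library was left out. The other 139 kept their call and direction under every alternative run. No called result changed sign; 60 values that were uncalled both ways did, and none of these was above 0.075 in size. Every total of called members and of other actin genes, both directions together, stayed within 1.5 times its value under all alternatives. The counts in 1 direction did not: with upper-quartile scaling 5 members (in place of 3) and 22 other actin genes (in place of 12) were higher in ORP5/8 KD than in Parental, 8 members (in place of 5) were higher in ORP5/8 KD than in CDC50A KD, and 4 (in place of 2) were lower in CDC50A KD than in ATP11A/C KD. Without CDC50A KD 3, 13 members were higher in CDC50A KD than in ATP11A/C KD, in place of 20. Leaving out 1 library gave 31 to 32 called members in ORP5/8 KD, 23 to 27 in ATP11A/C KD and 22 to 25 in CDC50A KD against Parental, and 60 to 65, 49 to 57 and 47 to 52 other actin genes. It gave 15 to 27 in CDC50A KD against ATP11A/C KD, 23 to 24 in ORP5/8 KD against ATP11A/C KD and 33 to 37 in ORP5/8 KD against CDC50A KD. With the filter of 1 CPM in 4 libraries, CDC50A KD had 12 members higher and 13 lower than Parental, in place of 14 and 10; without Parental 4 these were 11 and 12. In the fit of 2 groups alone, Wasl, Diaph1 and Tln1 were called in CDC50A KD against Parental (adjusted p = 0.0305, 0.0275 and 0.016); without ATP11A/C KD 2, Wasf2 was called in ATP11A/C KD (0.024). The upper-quartile scaling moved the median of all genes in ORP5/8 KD to 0.09.

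The replicate numbers are shared by the groups, and the labels do not say whether they pair the libraries. Correlations of same-numbered libraries ran from -0.17 to 0.11, and at most 1 of 4 pairs in a comparison passed 0.1. No strong pairing was seen, but such correlations cannot exclude that libraries were handled in numbered sets. With the replicate block, 31, 25 and 23 members were called for ORP5/8, ATP11A/C and CDC50A KD against Parental, and 63, 52 and 52 other actin genes. Between KD groups the block gave 22, 24 and 36 called members. With the block, 3 calls of members were lost: Capg in ORP5/8 KD against Parental (adjusted p = 0.0516), Brk1 in CDC50A KD against Parental (0.054) and Brk1 in ORP5/8 KD against CDC50A KD (0.0518). At most 2 of 4 libraries in a comparison correlated best with their own number. Enah and Marcks did not pass the filter; they held at most 32 and 8 counts summed over a group.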
